A study of Mus musculus with 8 samples.

Results

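Polyamines are small positively charged molecules that bind nucleic acids and are needed for growth and translation. The genes described here make putrescine, spermidine and spermine, break them down or set the amount of the first enzyme. They are Odc1 (ornithine decarboxylase), Srm (spermidine synthase), Sms (spermine synthase), Oaz1 and Oaz2 (antizymes), Azin1 (antizyme inhibitor), Sat1 (spermidine/spermine acetyltransferase) and Smox (spermine oxidase). Members were taken as every probe set that the platform annotation gives exactly 1 of these 8 symbols. This found 11 of the 22626 non-control probe sets of the array, for 7 of 12393 genes. The 3 probe sets that carry Sms also carry its pseudogene Sms-ps, so Sms has no probe set of its own, and 1 further Oaz1 probe set is shared with Oaz1-ps.

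RNA came from TTE3, a line of Sertoli cells, the somatic cells that nurse germ cells in the testis. All groups carry the transgene the line was made with, a simian virus 40 large T antigen that is sensitive to temperature; whether it was active in these cultures is not given in the sources used here. The agent was bisphenol A (BPA), a plastics monomer with weak estrogenic activity, at 0.2 mM for 0, 3, 6 or 12 h, with 2 arrays per time and 8 in all, and the question was which genes respond to it. No array without BPA at a later time was analysed here, so BPA and time in culture cannot be told apart. Nothing in the labels ties the replicates to separate dishes, so p-values reflect the spread between these arrays, which may be technical.

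In the pathway, ODC1 turns ornithine into putrescine and is the rate-limiting enzyme, and SRM and SMS then add aminopropyl groups. Antizyme binds ODC1 and sends it to the proteasome without ubiquitin, and it is itself made through a ribosomal frameshift that polyamines promote. AZIN1 resembles ODC1 but has no decarboxylase activity, and it binds antizyme in the place of ODC1. SAT1 acetylates spermidine and spermine for export or oxidation, and SMOX oxidises spermine back to spermidine. Much of this control acts on protein, which these arrays do not measure.

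The values are linear signals, 1 per probe set, as deposited by the authors. The mean signal without the top and bottom 2% was 500.16 to 500.18 on every array, which hides any change in total RNA. Replicates correlated at 0.97 to 0.982 on the log2 scale, and replicate 2 at 6 h correlated as well with an array of another time (0.972) as with its own replicate (0.97). The 3' to 5' signal ratio of the Gapdh controls was 0.713 to 0.82 in the 8 arrays. Of the 13 Sertoli markers with a probe set of their own, 9 passed the filter on low signals described next, Clu, Gata4 and Kitl among them, while Amh, Gdnf, Dhh and Cldn11 did not. Of markers of other testis cells, 5 of 7 peritubular or fibroblast, 1 of 4 Leydig, 1 of 6 germ and 3 of 4 macrophage genes passed. The summed Sertoli markers ran from 10338 to 10625 at 0 h and from 5817 to 6929 at 12 h, and the peritubular markers from 9664 to 9751 and from 4474 to 5307. Single genes decide these sums: the mean signal of Clu was 7650.5 at 0 h and 3409 at 12 h, and that of Dcn, a fibroblast marker, 8432 and 4290. Other markers were divided. Means at 0 and 12 h also fell for Inhbb (314.1 and 154.05), Wt1 (163.9 and 100.15), Col1a1 (975.15 and 329.7) and the germ marker Kit (545.45 and 229.55). Sox9, Gata4, Kitl and Acta2 did not share this course, with means of 43.5 and 134.8, 621.3 and 872.5, 1463 and 1368, and 66.9 and 68.0. For any such signal in bulk RNA, fewer cells of a type and less RNA per cell cannot be told apart. The part of these markers in the results below was not tested.

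Changes are differences in log2(signal + 7.9), on which low signals appear to change less than they did, with standard errors from limma. The filter kept the 15838 probe sets whose mean log2 signal was over the 30th percentile, and all 11 members passed; the lowest stood at the 56.6th percentile. A probe set was called at a Benjamini-Hochberg adjusted p under 0.05 over all those tested. At 3 h 6 of the 11 members were called, 5 higher and 1 lower, where 8.78% of all tested probe sets were called (5.91% higher, 2.87% lower). At 6 h 6 were called, again 5 higher and 1 lower, against 21.8% of all (13% higher, 8.84% lower). At 12 h 6 were called (5 higher, 1 lower) against 33.4% (17% higher, 16.4% lower). The higher ones at all 3 times were the 3 probe sets of Odc1 and the 2 of Azin1. The lower one was Sat1 at 3 and 6 h and Oaz1 at 12 h. Since 5 of the 6 calls come from 2 genes, the counts per gene are 2 higher and 1 lower of 7 at each time. With each gene read by its brightest probe set, 7.15%, 15.1% and 19.1% of all genes were called higher at 3, 6 and 12 h. The shares called lower were 2.76%, 8.56% and 16.2%, and in either direction 9.91%, 23.6% and 35.3%. The median change of the members was 0.06, 0.39 and 0.48 at 3, 6 and 12 h, beside 0.04, 0.04 and 0.03 over all tested probe sets. Over the whole time course 6 members of 3 genes were called by the moderated F test, against 29.3% of all.

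With arrays scaled to the same median, the median change over all probe sets at 3 h went from 0.04 to -0.09. The calls of all tested probe sets at 3 h then went from 936 higher and 454 lower to 628 and 981, and at 6 h from 2057 and 1400 to 1486 and 2049. Small changes are therefore to be read against that shift.

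**Figure D1:**
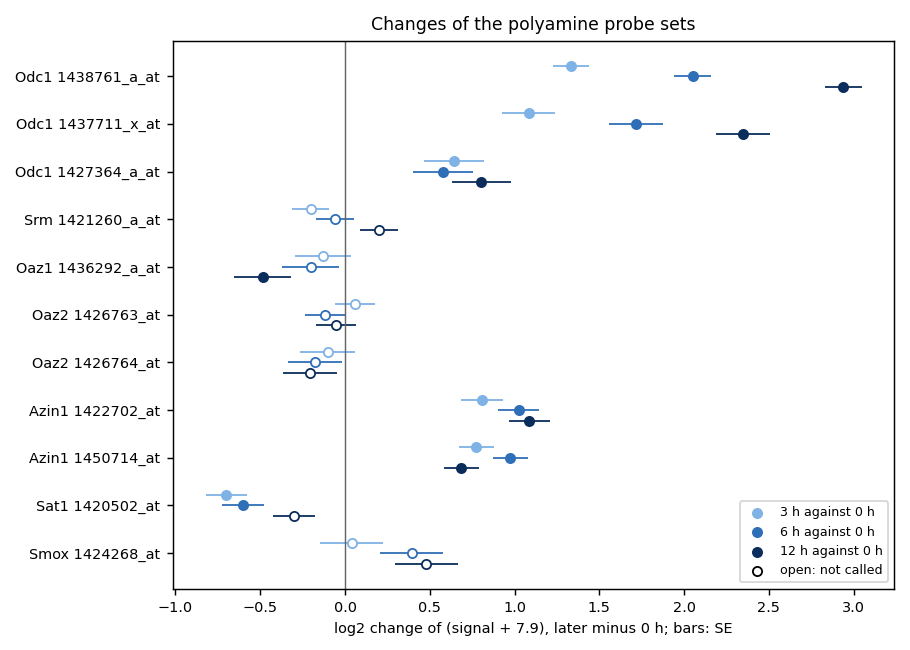
Change in log2(signal + 7.9) against 0 h (horizontal axis) of the 11 probe sets at 3, 6 and 12 h, with SE from limma (2 arrays per time); filled points were called at an adjusted p under 0.05. The probe sets of Odc1 and Azin1 are filled at all 3 times on the right, up to 2.94. On the left Sat1 is filled at 3 and 6 h and Oaz1 at 12 h.

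Odc1 had the largest change of the group, on a probe set that climbed at each time. Probe set 1438761_a_at read 1122 and 1142 on the 0 h arrays, 2762 and 2970 at 3 h, 4658 and 4771 at 6 h, and 8180 and 9310 at 12 h. The arrays of no pair of times overlapped. The mean signal was 2.53 times that of 0 h at 3 h, 4.16 times at 6 h and 7.73 times at 12 h. On the log2 scale it rose by 1.33 ± 0.11 (SE; adjusted p = 1.38e-05), 2.05 ± 0.11 (adjusted p = 2.31e-07) and 2.94 ± 0.11 (adjusted p = 1.19e-08). Among the 15838 tested probe sets this was the 197th largest rise at 3 h, the 87th at 6 h and the 25th at 12 h.

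The successive steps of this probe set were called as well. From 3 to 6 h it rose by 0.72 ± 0.11 (adjusted p = 0.00843), where 0.972% of all probe sets were called, and from 6 to 12 h by 0.89 ± 0.11 (adjusted p = 0.00168), where 2.97% were. The arrays of the later times did not overlap for 41.3% (3 and 6 h), 45.2% (6 and 12 h) and 58.2% (3 and 12 h) of all probe sets. The step from 3 to 6 h was not called without replicate 1 (adjusted p = 0.117) or replicate 2 (0.0665) at 3 h, nor without the intensity trend (0.121), and that from 6 to 12 h was not called without the trend (0.0538).

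A second probe set of Odc1, 1437711_x_at, whose suffix marks probes that can also bind similar sequences, moved the same way. It read 795.6 and 1073 at 0 h, 1915 and 2019 at 3 h, 2663 and 3503 at 6 h and 4870 and 4589 at 12 h, again with no overlap between times. It rose by 1.08 ± 0.16, 1.72 ± 0.16 and 2.35 ± 0.16 at 3, 6 and 12 h (adjusted p = 0.00124, 1.82e-05 and 9.15e-07). Its steps of 0.63 from 3 to 6 h and 0.63 from 6 to 12 h were not called (adjusted p = 0.111 and 0.0562), while that from 3 to 12 h was (1.26 ± 0.16, adjusted p = 0.000311). The step from 6 to 12 h was called when replicate 2 at 6 h was left out (0.83, adjusted p = 0.0227), with the same median on every array (0.73, adjusted p = 0.0272) and with a filter at the 50th percentile (adjusted p = 0.0462).

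The third Odc1 probe set, 1427364_a_at, rose less. It read 248.7 and 268.4 at 0 h, 418.6 and 397.4 at 3 h, 462.3 and 327.6 at 6 h and 467.7 and 446.8 at 12 h. All later arrays lay above both 0 h arrays, but the 6 h arrays overlapped those of 3 and 12 h, and none of the steps between them was called. At 12 h it rose by 0.80 ± 0.18 (adjusted p = 0.0039). The rises at 3 h (0.64 ± 0.18, adjusted p = 0.0412) and 6 h (0.58 ± 0.18, adjusted p = 0.0342) held less well. Both were lost with quantile normalization (adjusted p = 0.097 and 0.0876), with the same median on every array (0.0901 and 0.0809), without a filter (0.07 and 0.0568) and without the trend (0.103 and 0.0754). The 3 h call was lost without either array of 0 h (0.214 and 0.143), 3 h (0.19 and 0.138) or 12 h (0.0538 and 0.0535). The 6 h call was lost without either 0 h array (0.172 and 0.103) and with a fit of only 0 and 6 h (0.0646). Leaving out replicate 1 at 6 h gave a change of 0.33 (adjusted p = 0.251).

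Whether the Odc1 probe sets changed unequally was tested on their log2 difference per array, over all 8735 pairs of tested probe sets that share a gene. At 12 h 1427364_a_at rose less than the others: its change minus that of 1438761_a_at was -2.13 ± 0.21 (adjusted p = 0.000601), and minus that of 1437711_x_at -1.54 ± 0.27 (adjusted p = 0.00796). At that time 7.34% of all pairs were called. At 6 h the first difference was -1.47 ± 0.21 (adjusted p = 0.009; 1.74% of all pairs called) and at 3 h none of the 3 Odc1 pairs was called (0.275% of all). Between 1437711_x_at and 1438761_a_at the 12 h difference of -0.59 ± 0.19 was not called (adjusted p = 0.0985). The 6 h call was lost without replicate 1 or 2 at 0 h (adjusted p = 0.0854 and 0.0798), and that of 12 h against 1437711_x_at without replicate 1 at 0 h (0.0721) or at 12 h (0.0506). When replicate 1 at 6 h was left out, 1427364_a_at minus 1437711_x_at was called at 6 h (-1.58, adjusted p = 0.018; -1.14 and 0.0765 with all arrays).

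**Figure D2:**
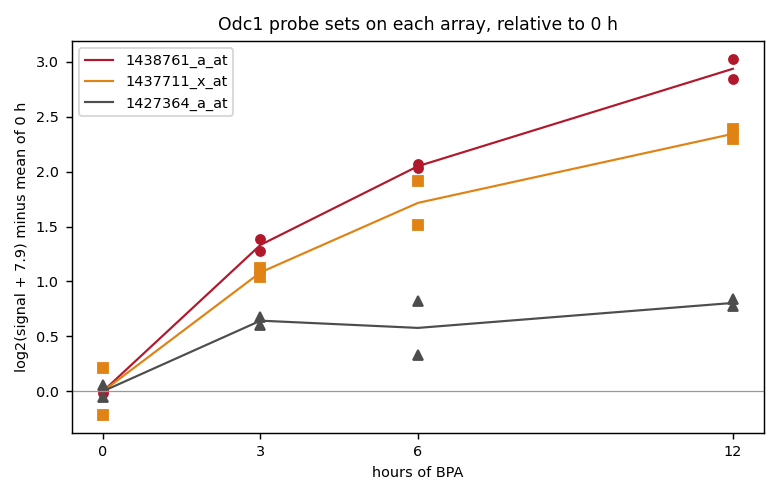
The 3 Odc1 probe sets on each of the 8 arrays, as log2(signal + 7.9) minus the mean of the 0 h arrays, against hours of BPA; points are arrays and lines join the means of 2 arrays. Probe sets 1438761_a_at and 1437711_x_at climb at every time to 2.94 and 2.35, while 1427364_a_at stays between 0.58 and 0.80 from 3 h on.

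The sequences before the start of Odc1, of Sat1, which fell, and of Oaz1, which was not called before 12 h, are shown so that the members with different courses can be set side by side. They are the 250 bases upstream of the annotated start, 5′ to 3′ on the gene's strand, from RefSeq (GRCm38.p6), at chr12:17544623-17544872 (plus strand), chrX:155216450-155216699 (minus strand) and chr10:80826406-80826655 (plus strand). Capitals mark matches on either strand to any of the motifs searched, and no match in these windows overlaps another.
Odc1: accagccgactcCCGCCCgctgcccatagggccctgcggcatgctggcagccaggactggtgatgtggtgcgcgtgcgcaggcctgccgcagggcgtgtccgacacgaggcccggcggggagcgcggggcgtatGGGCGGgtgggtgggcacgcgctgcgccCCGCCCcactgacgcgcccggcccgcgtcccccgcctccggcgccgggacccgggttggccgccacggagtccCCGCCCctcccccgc
Sat1: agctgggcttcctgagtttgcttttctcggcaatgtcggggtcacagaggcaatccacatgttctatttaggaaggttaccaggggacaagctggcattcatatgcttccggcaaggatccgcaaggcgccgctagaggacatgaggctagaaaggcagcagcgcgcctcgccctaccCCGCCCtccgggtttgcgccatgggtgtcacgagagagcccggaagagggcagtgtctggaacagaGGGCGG
Oaz1: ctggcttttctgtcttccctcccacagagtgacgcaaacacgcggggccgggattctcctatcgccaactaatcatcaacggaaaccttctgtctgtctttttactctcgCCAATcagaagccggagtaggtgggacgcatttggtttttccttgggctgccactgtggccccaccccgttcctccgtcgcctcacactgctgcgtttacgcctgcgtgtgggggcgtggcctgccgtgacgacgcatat

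The motifs searched were the GC box with the letters GGGCGG, the CCAAT box with CCAAT, the TATA box with TATAAA, the E-box with CACGTG (a MYC site), the AP-1 site with TGANTCA, the cAMP response element with TGACGTCA and the C/EBP-ATF response element with TGATGNAAN. The Odc1 window held 4 GC boxes and 80.0% G and C, where the median window had 52.4% and 32.7% of 32851 windows held a GC box. The Sat1 window held 2 GC boxes and the Oaz1 window 1 CCAAT box, a motif in 33.8% of windows. TATA box, E-box, AP-1, cAMP and C/EBP-ATF letters were in none of these 3 windows. Of all windows 12.4%, 6.02%, 6.75%, 1.55% and 3.44% held them. A match is a description of letters and not of a bound site, and the letters may lie outside the window. The sequence table matched 6 of the 8 genes, with windows for Oaz2, Smox and Sms besides those printed. The Smox window held 6 GC boxes and the Oaz2 window 3, so GC boxes did not set Odc1 apart from members that were not called. The Sms window with 75.2% G and C held 4 GC boxes, some of them overlapping. The other Sms window, with 47.2%, held 1 E-box and 1 CCAAT box.

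Srm, the next enzyme after ODC1, was called at no time against 0 h. Its probe set read 1594 and 1452 at 0 h, 1309 and 1332 at 3 h, 1482 and 1441 at 6 h and 1829 and 1675 at 12 h. The 3 h arrays were the lowest and the 12 h arrays the highest, and neither overlapped 0 h. Against 0 h the changes were -0.20 (95% interval -0.45 to 0.04), -0.06 (-0.30 to 0.19) and 0.20 (-0.04 to 0.44) at 3, 6 and 12 h (adjusted p = 0.309, 0.766 and 0.193). From 3 to 12 h Srm rose by 0.40 ± 0.11 (adjusted p = 0.027), a step in which 17.5% of all probe sets were called. That call was lost without replicate 1 or 2 at 3 h (adjusted p = 0.129 and 0.107), without replicate 1 at 12 h (0.15) and without the trend (0.083). The Sms signals cannot be separated from those of Sms-ps; the 3 probe sets annotated to both had changes between -0.24 and 0.30 against 0 h, none of them called.

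**Figure D3:**
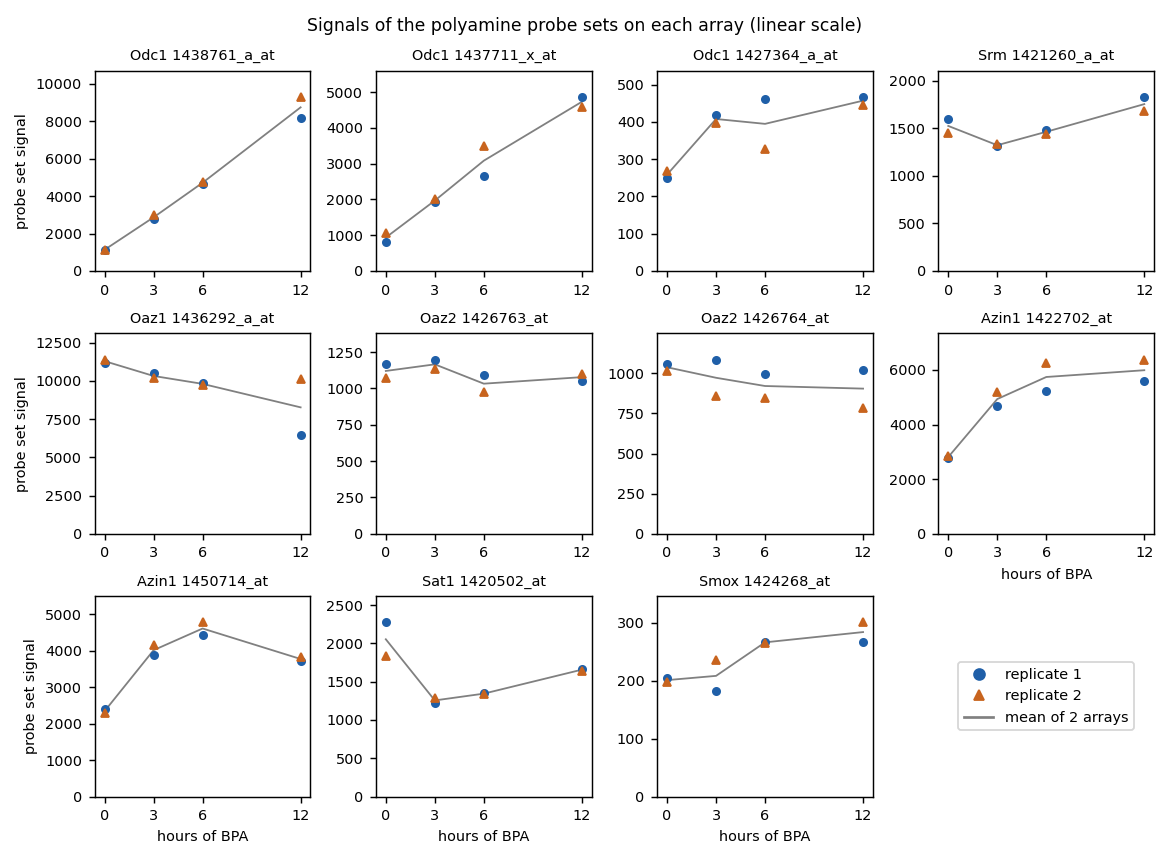
Probe set signal on the linear scale (vertical axes start at 0) against hours of BPA for the 11 probe sets; circles and triangles are replicates 1 and 2, and lines join their means. Odc1 1438761_a_at climbs from 1122 and 1142 to 8180 and 9310. Azin1 stays above 0 h from 3 h on, with 1450714_at lower at 12 h than at 6 h. Sat1 is lowest at 3 h, and replicate 1 of Oaz1 at 12 h lies apart at 6449.

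Azin1, whose product frees ODC1 from antizyme, rose early and then stayed up. Probe set 1422702_at read 2787 and 2833 at 0 h, 4679 and 5188 at 3 h, 5226 and 6257 at 6 h and 5599 and 6380 at 12 h. It rose by 0.81 ± 0.12, 1.02 ± 0.12 and 1.09 ± 0.12 (adjusted p = 0.0016, 0.000132 and 4.31e-05), with mean signals of 1.76, 2.04 and 2.13 times that of 0 h. Every later array lay above both 0 h arrays, and the 6 and 12 h arrays overlapped. The other probe set, 1450714_at, read 2395 and 2285 at 0 h, 3880 and 4140 at 3 h, 4436 and 4773 at 6 h and 3727 and 3811 at 12 h. It rose by 0.77 ± 0.10, 0.97 ± 0.10 and 0.69 ± 0.10 (adjusted p = 0.000678, 5.82e-05 and 0.000371). All 6 calls of Azin1 against 0 h held in every alternative run, with changes between 0.64 and 1.18.

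After 3 h no step of Azin1 was called. Probe set 1422702_at changed by 0.21 from 3 to 6 h (adjusted p = 0.505) and by 0.06 from 6 to 12 h (0.84), and 1450714_at by 0.20 (0.466) and by -0.29 ± 0.10 (0.167). With the same median on every array, 1422702_at was called higher at 12 h than at 3 h (0.40, adjusted p = 0.0354, against 0.28 and 0.144). The probe sets ended apart, with changes that differed by 0.40 ± 0.14 at 12 h, but this difference was not called (adjusted p = 0.132) and was 0.03 and 0.05 at 3 and 6 h.

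No antizyme probe set was called higher at any time. Oaz1 probe set 1436292_a_at read 11197 and 11404 at 0 h, 10494 and 10166 at 3 h, 9877 and 9746 at 6 h and 6449 and 10100 at 12 h. All later arrays lay below both 0 h arrays, and replicate 1 at 12 h lay far below the rest. The changes were -0.13 (95% interval -0.49 to 0.23) at 3 h and -0.20 (-0.57 to 0.16) at 6 h, not called (adjusted p = 0.709 and 0.435), and -0.49 ± 0.17 at 12 h (adjusted p = 0.0418). The 12 h call rests on that array: without replicate 1 at 12 h the change was -0.16 (adjusted p = 0.405). It was also lost without replicate 1 or 2 at 0 h (adjusted p = 0.134 and 0.159) or at 3 h (0.0616 and 0.0618), without a filter (0.0928), without the trend (0.134) and with only 0 and 12 h in the fit (0.0526). On the probe set shared by Oaz1 and Oaz1-ps the 12 h arrays read 10142 and 8190, in the opposite order, beside 9184 and 9388 at 0 h, and the change was -0.03 ± 0.13 (adjusted p = 0.906). On 1436292_a_at no step between later times was called, but with replicate 2 at 12 h left out those from 6 to 12 h (-0.60, adjusted p = 0.0382, against -0.28 and 0.414) and from 3 to 12 h (-0.68, adjusted p = 0.00746, against -0.36 and 0.17) were.

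Oaz2, the second antizyme gene, was read by 2 probe sets. On 1426763_at the 8 arrays lay between 976.0 and 1199, and on 1426764_at between 786.4 and 1086. The changes were 0.06, -0.12 and -0.05 on the first and -0.10, -0.18 and -0.21 on the second at 3, 6 and 12 h, none of them called (adjusted p between 0.354 and 0.826). At 12 h the 95% intervals were -0.31 to 0.20 and -0.56 to 0.14, so a rise of the size of Odc1 lay outside both. The 3 h change of 1426763_at took the other sign with arrays scaled to the same median (-0.07).

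Sat1, which starts polyamine breakdown, was the member that fell first. Its probe set read 2276 and 1834 at 0 h, 1228 and 1283 at 3 h, 1355 and 1333 at 6 h and 1670 and 1645 at 12 h. The 0 h arrays were the highest and the farthest apart, and every later array lay below both. Sat1 fell by 0.70 ± 0.12 at 3 h (adjusted p = 0.00427), to 0.611 times the 0 h mean, and by 0.60 ± 0.12 at 6 h (adjusted p = 0.0046). At 12 h the change was -0.30 ± 0.12 and was not called (adjusted p = 0.0816). From 3 to 12 h it rose by 0.40 ± 0.12 (adjusted p = 0.0436).

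Some of these calls changed when 1 array was left out, which leaves 1 array at that time, while every change of Sat1 kept its sign. The falls at 3 and 6 h were each called in 17 of the 18 alternatives. With replicate 1 at 0 h left out, the changes of Sat1 were -0.54 at 3 h (adjusted p = 0.0695) and -0.45 at 6 h (0.0707), and with replicate 2 at 0 h left out its 12 h change was called (-0.46, adjusted p = 0.0427). The rise from 3 to 12 h was lost without replicate 1 or 2 at 3 h (adjusted p = 0.188 and 0.126) or at 12 h (0.151 and 0.117), with quantile normalization (0.0615), without a filter (0.0529) and without the trend (0.12).

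Smox, the other breakdown gene, was called at no time against 0 h. It read 204.0 and 198.2 at 0 h, 181.7 and 235.2 at 3 h, 267.0 and 265.7 at 6 h and 267.3 and 300.9 at 12 h. The 6 and 12 h arrays lay above both 0 h arrays, but the changes of 0.39 ± 0.19 and 0.48 ± 0.19 were not called (adjusted p = 0.163 and 0.0666), and the 95% interval at 12 h was 0.08 to 0.89 before adjustment. From 3 to 12 h Smox changed by 0.44 ± 0.19 (adjusted p = 0.126), which was called when every array had the same median (0.56, adjusted p = 0.0498). The 3 h change of 0.04 turned to -0.09 with quantile normalization and with arrays scaled to the same median.

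Arrays of 0 h and a later time did not overlap for 8, 9 and 9 of the 11 members at 3, 6 and 12 h. With 2 arrays a group this holds for 56.3%, 60.2% and 67.7% of all tested probe sets, so separation alone says little about a member. Against the same background at 12 h, 99.8% of tested probe sets had a lower change than Odc1 1438761_a_at, 99.5% than 1437711_x_at and 90.3% than 1427364_a_at. For Azin1 the shares were 95.2% (1422702_at) and 86.9% (1450714_at), and for Smox 78.8%. Srm lay at 62.6%, Oaz2 at 43.8% and 33.1%, Sat1 at 28% and Oaz1 at 18.9%.

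**Figure D4:**
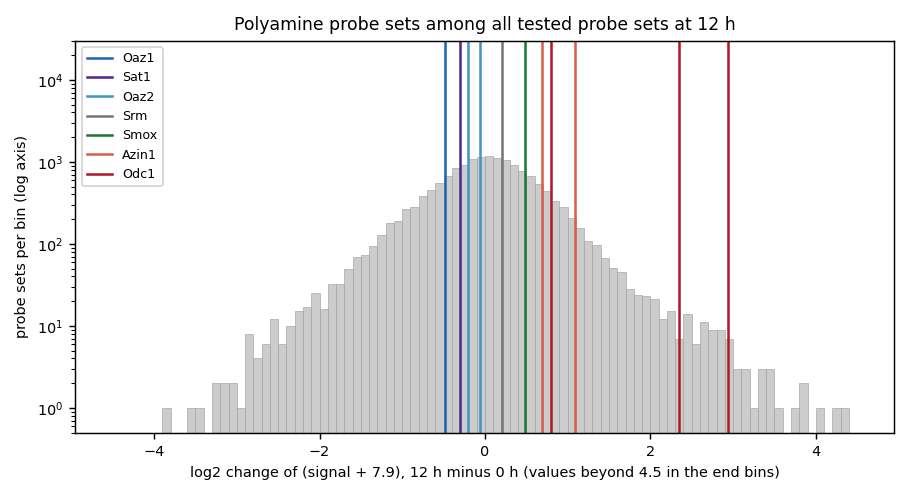
Histogram of the log2 change at 12 h against 0 h over all 15838 tested probe sets (grey; number per bin on a log axis), with the 11 polyamine probe sets as coloured lines. The leading Odc1 probe sets, at 2.94 and 2.35, lie in the far right tail and the antizymes, Sat1 and Srm in the bulk.

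The genes whose log2 signals followed a member most closely over the 8 arrays were named by Pearson's r, as a description; these arrays share the same 4 times. For Odc1 1438761_a_at they were Smc6 (r = 0.997), Pdlim5 (0.995) and Ube2f (0.994). Pdlim5 rose by 2.44 ± 0.20 at 12 h, and Smc6 and Ube2f by 0.81 ± 0.11 and 0.86 ± 0.11, beside 2.94 ± 0.11 for Odc1. A like shape follows from the choice by r, which does not look at size. For Azin1 1422702_at they were Mphosph8 (0.993), Zfp451 (0.993) and Lss (0.99), with 6 h rises of 1.27 ± 0.15, 1.43 ± 0.19 and 1.19 ± 0.13. For Sat1 they were Dmac1 (0.976), Sin3b (0.961) and 1110008P14Rik (0.957). Dmac1 fell by 0.59 ± 0.12 at 3 h and by 0.61 ± 0.12 at 6 h, and 1110008P14Rik fell by 0.54 ± 0.12 at 3 h. Sin3b was called at no time against 0 h (adjusted p = 0.0566, 0.117 and 0.288). Dmac1 was not called at 12 h (0.0516), nor 1110008P14Rik at 6 and 12 h (0.0672 and 0.319). Ube2f and Mphosph8 were read by probe sets that can bind several transcripts.

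The wider pathway was read from a list of 33 neighbouring genes, each by its brightest probe set. The list was chosen with earlier results of these data known, so its counts are a description. On the array 22 had a probe set of their own and 19 were tested. At 3 h 2 rose, Myc and Slc3a2, and 17 were not called, where 9.91% of all genes so read were called (7.15% higher, 2.76% lower). At 6 h 3 rose and 1 fell, against 23.6% of all (15.1% higher, 8.56% lower), and at 12 h 4 rose and 4 fell, against 35.3% (19.1% higher, 16.2% lower). Their median change was -0.07, -0.07 and -0.01, beside 0.06, 0.07 and 0.06 over all genes. These counts were lower in some fits that leave 1 array at a time. At 6 h this held without replicate 1 or 2 at 0 h or replicate 1 at 6 h. At 12 h it held without replicate 1 or 2 at 0 h or replicate 1 at 12 h. The calls over all probe sets were also fewer in these fits. At 3 h 2 rose and 2 fell when every array was given the same median. With that scaling 628 of all 15838 probe sets were called higher and 981 lower. Amd1, which makes the aminopropyl donor for SRM and SMS, has no probe set of its own here.

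Myc, whose product is a known activator of Odc1 transcription, was highest at 3 h. It read 952.4 ± 34.6 (SD, n = 2) at 0 h, 3594 ± 211 at 3 h, 3010 ± 84.4 at 6 h and 2233 ± 41.3 at 12 h, and rose by 1.91, 1.65 and 1.22 (SE 0.11; adjusted p = 5.44e-07, 9.83e-07 and 6.61e-06). From 3 to 12 h Myc fell by 0.68 ± 0.11 (adjusted p = 0.00122), while Odc1 1438761_a_at rose by 1.60 ± 0.11 (adjusted p = 6.05e-06). Eif5a, the translation factor that carries hypusine, an amino acid made from spermidine, was not called: its changes were -0.15, -0.10 and -0.09 (adjusted p = 0.642, 0.699 and 0.718), and those of a second probe set -0.27, -0.37 and -0.15 (0.266, 0.0755 and 0.457).

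Among transport genes Slc3a2, the heavy subunit of several amino acid transporters, rose by 1.17, 1.80 and 2.39 (SE 0.12; adjusted p = 9.37e-05, 1.35e-06 and 1.08e-07). Slc7a1, a carrier of arginine and ornithine, rose from a low signal of 42.9 ± 11.8 to 114.5 ± 3.18 at 6 h (1.29 ± 0.38, adjusted p = 0.0296) and 173.4 ± 89.7 at 12 h (1.76 ± 0.38, adjusted p = 0.00356). The 6 h call was lost without replicate 1 or 2 at 0 h (adjusted p = 0.175 and 0.0579) or at 6 h (0.0987 and 0.0758), with quantile normalization (0.0508) and without a filter (0.0688). That of 12 h was lost without replicate 1 at 12 h (1.23, 0.0522). For Atp13a3, which encodes a P5B ATPase involved in polyamine uptake, the probe sets disagreed. The probe set with the higher signal fell by 0.84 ± 0.22 at 6 h (adjusted p = 0.0188) and by 0.96 ± 0.22 at 12 h (0.00566), and the other rose by 0.53 ± 0.15 at 12 h (0.0141). The 6 h fall was lost without replicate 1 or 2 at 0 h (0.106 and 0.0802), without replicate 1 at 6 h (-0.42, 0.123) and without the trend (0.0925). The 12 h fall was lost without replicate 1 at 12 h (0.0558). At 3 h this probe set was not called (-0.64, adjusted p = 0.104), but it was without either 6 h array (0.0138 and 0.0143), with the same median on every array (0.0416) and in a fit of only 0 and 3 h (0.0061).

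The called changes of methionine and arginine genes, by their brightest probe sets, came at 12 h. Mtap, which recycles the methylthioadenosine left by SRM and SMS, fell by 0.43 ± 0.11 (adjusted p = 0.00846); of its 3 other probe sets 2 fell by 1.44 ± 0.13 and 1.22 ± 0.17 (adjusted p = 1.11e-05 and 0.000184) and the other was not called (-0.32, 0.053). The probe set with the fall of 1.44 also fell by 0.67 ± 0.13 at 6 h (0.00419). Mri1, an enzyme of the same salvage route, rose by 0.52 ± 0.17 (0.0307). Mat2b, a subunit of methionine adenosyltransferase, fell by 0.38 ± 0.13 (0.0369), and Asl, which releases arginine, by 0.41 ± 0.13 (0.0301). The call of the brightest Mtap probe set was lost without replicate 1 or 2 at 0 h (adjusted p = 0.0527 and 0.0592) or replicate 1 at 12 h (0.065). Without those 3 arrays in turn, the call of Mri1 was also lost (0.0539, 0.201 and 0.176), as was that of Mat2b (0.162, 0.118 and 0.223). Mat2b was also lost without either 3 h array (0.0528 and 0.0528), and Mri1 with quantile normalization (0.0557). Asl was lost without either 12 h array (0.122 and 0.0707) and without replicate 1 at 0 h (0.23). None of Mri1, Mat2b and Asl was called without the trend (0.0895, 0.0977 and 0.0693). With replicate 2 at 6 h left out, Mat2b (-0.49, 0.0274) and Mri1 (0.67, 0.0196) were called at 6 h as well, and with the same median on every array Mat2b was called at 3 h (-0.44, 0.0496) and 6 h (-0.47, 0.0194).

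**Figure D5:**
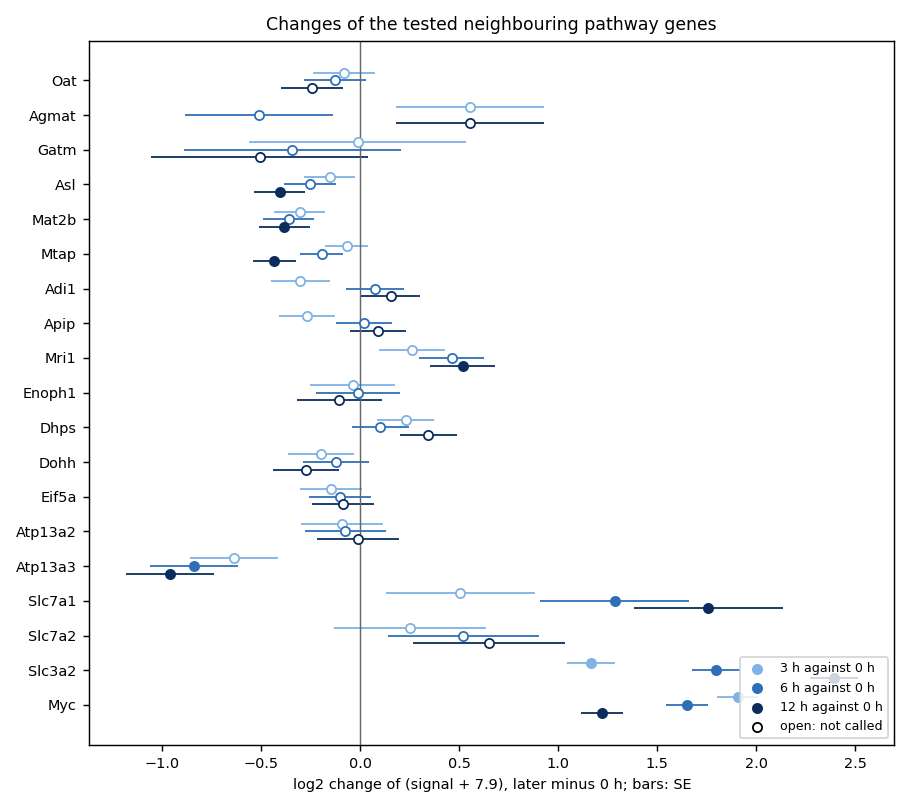
Change in log2(signal + 7.9) against 0 h (horizontal axis) of the 19 tested neighbouring genes at 3, 6 and 12 h, each by its brightest probe set, with SE from limma; filled points were called at an adjusted p under 0.05. Slc3a2 and Myc are filled on the right at all 3 times, and 11 of the 19 genes are open at 12 h.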

How the data were processed

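Affymetrix Mouse 430A intensities of 22690 probe sets were deposited on a linear scale; the sources used here do not give the authors' software or algorithm. All arrays share 1 trimmed mean, by their values. After removal of 64 controls, 20380 probe sets had 1 gene symbol, 691 several and 1555 none. Symbols of 20351 were updated through Entrez identifiers to the RefSeq table of GRCm38.p6, used for names. Groups and replicate numbers came from the sample titles.

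The log2 transform used an offset of 7.9, the 10th percentile of the signals. In R 4.3.3, limma 3.58.1 estimated a mean for each time from the 8 arrays (lmFit, eBayes with trend; 4 residual and 7.82 prior degrees of freedom). P-values are two-sided and were adjusted by Benjamini-Hochberg over the 15838 probe sets tested, with 6788 removed by the filter. The number of arrays limits the precision. Detection calls were not used here.

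The members and lists were chosen with earlier results of these data known. Every member probe set was named, with Amd1, Eif5a, Myc and, in each group of neighbouring genes, up to 3 called genes with the largest change. Likeness was named for the brightest probe set of each member called by the F test, with the 3 highest correlations. The further probe sets of neighbouring genes were added after their values were seen. Alternatives were other scalings, offsets, filters and variance models, 1 probe set per gene, a replicate block, fits without the other times, and leaving out each array.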

Additional observations from a re-analysis of the deposited data

How the results depend on the processing

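The rises of Odc1 1438761_a_at and 1437711_x_at and of both Azin1 probe sets against 0 h kept their direction and call in every alternative that tested them. The number of called polyamine probe sets was 6 at each time against 0 h and over the time course. It was 3 in each of these with 1 probe set per gene, since that fit tests 7 of them. Over all genes, that fit called 1048, 2299 and 3331 of 8675 probe sets at 3, 6 and 12 h. Without 1 array the number of called members also moved, in fits that leave 1 array at that time. Called steps were 1 from 3 to 6 h, 1 from 6 to 12 h and 4 from 3 to 12 h, where 0.972%, 2.97% and 17.5% of all probe sets were called. Without the intensity trend they were 0, 0 and 2, where 0, 62 and 1679 of all 15838 probe sets were called. Without 1 array the called steps also moved, in fits that leave 1 array at that time. With arrays scaled to the same median 6 were called from 3 to 12 h, with 3126 of all 15838 probe sets. From 6 to 12 h 2 were called with that scaling (415 of 15838 over all) and with the filter at the 50th percentile (533 of 11313). Unequal probe set pairs numbered 1 at 6 h and 2 at 12 h; at 6 h there were 2 with an offset 4 times the main, and without 1 array 0 to 2 at 6 h and 1 to 2 at 12 h. Neighbouring genes called at 3 h went from 2 to 4 with arrays scaled to the same median, and without 1 array there were 2 to 3, 2 to 5 and 2 to 8 at 3, 6 and 12 h (2, 4 and 8 with all arrays). The cause was not tested.

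The labels tie same-numbered arrays only by their number, so whether they were paired is not given. The correlation of the replicate differences between times was 0.00749 to 0.119, which cannot decide this. A replicate block gave 1835, 3977 and 5803 calls over all probe sets at 3, 6 and 12 h (1390, 3457 and 5293 without it). From 3 to 6 h it gave 222 (154 without it). With the replicate block 2 polyamine probe sets were called from 3 to 6 h and 2 from 6 to 12 h, 2 Odc1 pairs differed at 6 h, 6 neighbouring genes were called at 6 h, Atp13a3 was called at 3 h (adjusted p = 0.0314) and Mat2b and Mri1 at 6 h (0.0345 and 0.0135), and 772 of all probe sets were called from 6 to 12 h (471 without it).

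Changes that took the other sign were not called with all arrays or under the setting that turned them: Smox at 3 h (-0.090 with quantile normalization and -0.089 with arrays scaled to the same median), Mtap at 3 h (0.0062 with quantile normalization), and Oaz2 1426763_at at 3 h (-0.074) and Azin1 1450714_at from 3 to 12 h (0.036) with the same median. Without 1 array, the changes at 3 h ranged from -0.14 to 0.22 for Smox, from -0.0063 to 0.12 and from -0.27 to 0.065 for the Oaz2 probe sets and from -0.32 to 0.026 for Eif5a. Those of Srm at 6 h ran from -0.12 to 0.0090, of Oaz2 1426763_at at 12 h from -0.12 to 0.0097, of Eif5a at 12 h from -0.32 to 0.14 and of Azin1 1422702_at from 6 to 12 h from -0.066 to 0.19 and of Oaz1 over the same step from -0.60 to 0.042. Differences between probe sets ran from -0.011 to 0.079 (3 h) and from -0.027 to 0.13 (6 h) for Azin1 and from -0.066 to 0.37 (12 h) for Oaz2. Over all probe sets 1390, 3457 and 5293 were called at 3, 6 and 12 h; without the trend 670 were called at 3 h, 0 from 3 to 6 h (154 with it), 62 from 6 to 12 h (471) and 1679 from 3 to 12 h (2773). Without 1 of the 0 h arrays 515 and 563 were called at 3 h, 1834 and 1823 at 6 h, and 3541 and 3472 at 12 h, and without 1 of the 3 h arrays 570 and 618 at 3 h.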
